A study of Mus musculus with 8 samples.

Results

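The replication-dependent histone genes supply the bulk of the histone protein that is wrapped into chromatin when DNA is copied. They were taken as every gene whose current or older symbol starts with Hist1h, Hist2h, Hist3h or Hist4h, and 48 of the 70 such genes in the RefSeq gene table had a probe on the array, among 20145 named genes measured in all. The array carried 52 probes for them: 6 genes encode linker histone H1, 14 encode H2A, 11 encode H2B, 8 encode H3 and 9 encode H4. Of the 48 genes, 36 belong to the large Hist1 cluster, 9 to Hist2, 2 to Hist3 and 1 to Hist4. For each gene the current symbol is given first, with the older cluster name in brackets.

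RNA was measured from 8 tumours that grew from 4T1, a line of mammary carcinoma cells of the mouse. Before injection the cells were exposed for 24 h, at 50 infectious units per cell, to Adenoviral-PRH (4 arrays, called PRH-labelled) or to an empty adenovirus (4 control arrays), so that both groups carried an adenoviral infection. The cells were placed in the fat pad of female BALB/C mice aged 6-8 weeks, and tumours were collected on day 22. The arrays of each group carry the mouse numbers 1, 2, 3 and 5. The labels differ on the material, since the design text speaks of RNA from each tumour and the extraction protocol of endothelial isolates. All 10 epithelial and all 10 endothelial marker genes looked at were well above background on all 8 arrays. PRH is the product of Hhex, and the Hhex probe read lower where PRH was meant to be delivered. Its level was -1.71, -1.46, -1.79 and -1.72 on PRH-labelled arrays and -0.54, -0.33, -0.69 and -0.78 on control arrays, a difference of -1.09 (SE 0.149, adjusted p = 0.00685). Every direction below is therefore that of the label. Whether the probe reads the delivered sequence is not known from the sources used here. Levels are log2 of an array's processed signal relative to the 75th percentile of all its non-control spots, differences are PRH-labelled minus control on that scale, and adjusted p-values come from limma over all 34543 items tested. The headers give each array's place on the slide by a pair of coordinates. The first was 1 on all PRH-labelled and 2 on all control arrays, so an effect of place cannot be told apart from one of the label. The second was the same for arrays of the same mouse number.

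Histone proteins package DNA: H2A pairs with H2B, H3 pairs with H4, and H1 binds the linker between nucleosomes. The replication-dependent genes lie in clusters, lack introns in nearly all cases, and are switched on when a cell enters S phase. Their mRNAs usually end in a conserved stem-loop in place of a poly(A) tail. SLBP binds that stem-loop and guides 3′ end cutting, translation and decay, and NPAT activates transcription in the histone locus body. The labelling kit named in the labels primes from poly(A). Its part in the readings was not tested. The genes of a class have nearly the same coding sequence and the probe sequences were not used here, so it is uncertain whether a probe reads its own gene alone. In bulk samples fewer cells in S phase and less histone RNA per cell cannot be told apart.

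The start regions of the genes that rose are shown first because neighbouring histone genes share control regions and because the classes differ in the motifs near their starts. Each window runs from 250 bases before the annotated start to 50 after it, 5′ to 3′ on the gene's strand, from RefSeq with build GRCm38.p6. Capitals mark TATAAA (the letters of a TATA box, at any position), CCAAT and ATTTGCAT (the octamer bound by POU factors). They were searched on both strands (a match on the opposite strand is in capitals as its reverse complement).
H2ac6 (chr13:23683910-23684209, minus strand): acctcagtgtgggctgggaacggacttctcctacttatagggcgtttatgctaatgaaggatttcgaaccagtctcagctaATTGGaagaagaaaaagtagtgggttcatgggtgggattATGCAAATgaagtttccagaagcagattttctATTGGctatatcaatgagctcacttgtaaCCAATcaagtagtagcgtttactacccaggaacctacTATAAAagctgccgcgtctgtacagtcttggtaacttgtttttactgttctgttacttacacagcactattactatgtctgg
H2ac20 (chr3:96220831-96221130, minus strand): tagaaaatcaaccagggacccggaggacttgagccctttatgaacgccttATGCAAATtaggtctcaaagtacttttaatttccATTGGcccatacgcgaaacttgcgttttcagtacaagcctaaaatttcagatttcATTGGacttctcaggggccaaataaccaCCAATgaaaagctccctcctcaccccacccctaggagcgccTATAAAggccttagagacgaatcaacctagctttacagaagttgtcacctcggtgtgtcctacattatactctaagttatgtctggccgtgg
H2bc1 (chr13:23934107-23934406, minus strand): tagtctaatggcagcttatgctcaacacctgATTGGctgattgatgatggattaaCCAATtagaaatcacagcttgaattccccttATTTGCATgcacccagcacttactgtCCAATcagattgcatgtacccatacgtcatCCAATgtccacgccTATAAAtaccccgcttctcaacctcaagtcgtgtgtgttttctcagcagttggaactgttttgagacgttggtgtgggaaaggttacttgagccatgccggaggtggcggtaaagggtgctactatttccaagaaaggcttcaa
H2bc3 (chr13:23746484-23746783, plus strand): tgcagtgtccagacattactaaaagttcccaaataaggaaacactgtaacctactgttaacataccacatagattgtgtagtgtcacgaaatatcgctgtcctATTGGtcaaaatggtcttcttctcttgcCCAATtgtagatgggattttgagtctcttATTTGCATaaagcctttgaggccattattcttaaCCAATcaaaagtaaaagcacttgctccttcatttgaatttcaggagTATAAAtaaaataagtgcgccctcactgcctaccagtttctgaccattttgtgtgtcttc
H2bc22 (chr13:21787238-21787537, plus strand): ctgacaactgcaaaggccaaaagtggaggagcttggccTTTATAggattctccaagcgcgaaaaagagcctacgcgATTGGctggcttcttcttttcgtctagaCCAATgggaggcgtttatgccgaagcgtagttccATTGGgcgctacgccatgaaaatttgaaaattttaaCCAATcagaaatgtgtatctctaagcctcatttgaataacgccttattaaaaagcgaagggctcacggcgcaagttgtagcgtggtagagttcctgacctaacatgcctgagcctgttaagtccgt
H4c9 (chr13:22041313-22041612, minus strand): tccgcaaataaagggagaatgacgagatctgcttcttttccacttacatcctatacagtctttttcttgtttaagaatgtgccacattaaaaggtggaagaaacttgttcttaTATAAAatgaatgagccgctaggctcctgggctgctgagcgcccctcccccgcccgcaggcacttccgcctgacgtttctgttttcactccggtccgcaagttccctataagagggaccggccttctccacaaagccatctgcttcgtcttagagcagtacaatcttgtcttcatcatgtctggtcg
H4c17 (chr13:21811496-21811795, plus strand): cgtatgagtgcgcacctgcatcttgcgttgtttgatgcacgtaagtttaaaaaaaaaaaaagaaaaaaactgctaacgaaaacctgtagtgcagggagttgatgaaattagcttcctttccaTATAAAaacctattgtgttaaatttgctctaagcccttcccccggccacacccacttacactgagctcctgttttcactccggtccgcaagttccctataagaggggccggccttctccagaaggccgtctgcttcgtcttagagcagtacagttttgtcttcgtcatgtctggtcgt

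Of the 70 genes, 62 had a promoter entry. Among these 62, TATAAA was present in 35 (56.5%), CCAAT in 53 (85.5%) and ATTTGCAT in 14 (22.6%), against 15.7%, 41.1% and 1.97% of all 27025 genes with an entry. The octamer was found in 7 of 18 H2A windows, in 7 of 16 H2B windows and in none of the 6 H1, 10 H3 and 12 H4 windows. CCAAT was found in every H1, H2A, H2B and H3 window and in 3 of 12 H4 windows. H4c9 and H4c17 instead share an unbroken run of 38 bases, from position -59 to -22 relative to the start of H4c9 and from -60 to -23 relative to that of H4c17.
Shared H4 run: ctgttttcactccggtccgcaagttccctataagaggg
This run was present in 3 of the 12 H4 windows and in no other of the 27025 genes. The single TATAAA match in the H2bc22 window lies on the opposite strand, at position -33 relative to the start of the divergently transcribed neighbour H2ac22, whose window (chr13:21787199-21787498, minus strand) covers nearly the same bases. All 7 genes that rose held TATAAA on 1 strand or the other and 4 of the 7 held the octamer. Of the 42 tested histone genes with an entry, 25 held TATAAA and 13 the octamer. The TATAAA match began at -32 in H2ac6, -42 in H2ac20, -94 in H2bc1 and -10 in H2bc3. It began at -137 in H4c9, -128 in H4c17 and -212 in H2bc22, so the letters were counted wherever they lay. Over the 23 tested H2A and H2B genes with an entry, the median difference was 0.56 for the 13 with the octamer and 0.60 for the 10 without it. For TATAAA it was 0.72 for the 15 with the letters, which include the H2A and H2B genes that rose, and 0.41 for the 8 without. Neither contrast was tested.

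Of the 47 histone genes that passed the filter on dim probes, 7 were higher, 1 was lower and 39 did not pass. All but H2ac6 and H2bu2 were well above background on all 8 arrays. The 7 higher and 1 lower make 17.0% of the 47, under the 25.9% of all items that passed (17.3% higher and 8.67% lower). Of 16377 named genes tested, 1746 were higher and 2107 lower, or 23.5% called. The higher genes were H2ac6 and H2ac20 of the H2A class, H2bc1, H2bc3 and H2bc22 of the H2B class, and H4c9 and H4c17 of the H4 class. The lower gene was H2bc21, and 0 H1 or H3 genes passed with limma (1 of 5 H1 and 0 of 8 H3 genes had an unadjusted p under 0.05). An unadjusted p under 0.05 was reached by 16 of the 47, against 38.9% of all items. The 2 groups did not overlap for 11 genes above and 1 below control, or 25.5%, against 31.4% of all items. Most genes nevertheless lay above 0: the difference was positive for 39 of 47 (83.0%), against 63.2% of all items and 48.5% of named genes. The median was 0.56, against 0.29 over all items and -0.02 over named genes. With each array centred on its median, 26 of 47 lay above 0, and 35 did in each of 3 other scalings (quantile normalization, normexp, the deposited values). Leaving out single arrays moved the higher count to 1 (without PRH 1, PRH 5, control 2 or control 5), 2 (without PRH 2), 3 (without PRH 3) and 14 (without control 3), and the lower count to 0 without PRH 1. Median centring gave 1 higher and 1 lower, quantile normalization 3 and 1, normexp background correction 4 and 1, and the authors' deposited values 5 and 1. H2bc14 (difference 0.31, SE 0.153, as reported) was among the higher genes in both of the last. These 4 settings and the reported one are the 5 scalings spoken of from here on.

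**Figure D1:**
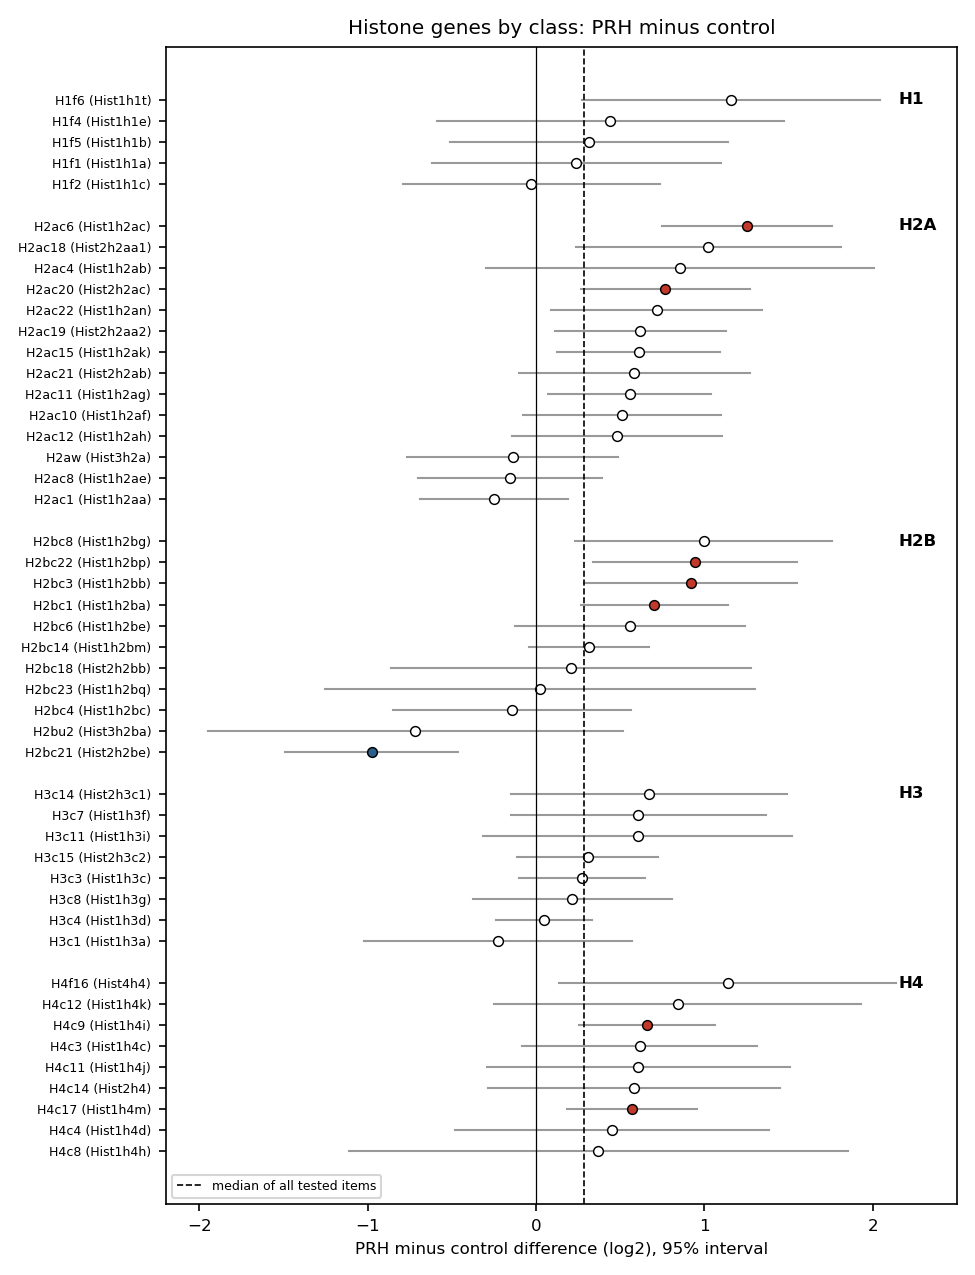
Each point is the PRH-labelled minus control difference (log2, horizontal axis) of 1 histone gene, with its 95% interval, grouped by class; filled points passed at an adjusted p under 0.05 and the dashed line is the median of all tested items, 0.29. The 7 filled points to the right and the 1 to the left are the genes called, and all 9 H4 genes lie above 0.

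H2ac6 (Hist1h2ac), a canonical H2A gene, had the smallest p of the histone genes. Its level was -4.31, -4.14, -4.40 and -3.55 on PRH-labelled arrays and -5.21, -5.34, -5.21 and -5.65 on control arrays. Every PRH-labelled array lay above every control array. The difference was 1.25 (SE 0.218, 2.38-fold, adjusted p = 0.00844). The probe was dim: it was well above background on 4 of 4 PRH-labelled but 3 of 4 control arrays, and its raw signal was 32.9 to 64.4 on PRH-labelled arrays and 20.1 to 31.6 on control arrays. The call held without any single array and under median centring, and was lost under quantile normalization, with normexp background correction and in the authors' deposited table.

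H2ac20 (Hist2h2ac), an H2A gene of the Hist2 cluster, had levels of 8.16, 8.20, 8.04 and 7.95 on PRH-labelled arrays and 7.39, 6.82, 7.82 and 7.24 on control arrays. The groups did not overlap, and the control values were spread more widely than the PRH-labelled ones (SD 0.11 on PRH-labelled and 0.41 on control arrays). The difference was 0.77 (SE 0.215, adjusted p = 0.0354). Before scaling its raw signal overlapped, with 182822 to 223927 on PRH-labelled and 145099 to 244465 on control arrays. It did not pass in any of the other 4 scalings, nor without PRH 1, 2, 3 or 5 or without control 2 or 5 (adjusted p up to 0.0880).

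H2bc1 (Hist1h2ba) encodes TH2B, the H2B form of the testis. Its level was 3.57, 3.54, 3.47 and 3.61 on PRH-labelled arrays, a range of less than 0.2, and 2.84, 2.45, 3.30 and 2.80 on control arrays. It was higher by 0.70 (SE 0.187, adjusted p = 0.0296), with no overlap on this scale. Its raw signal did overlap, with 7701 to 9193 on PRH-labelled and 6996 to 10624 on control arrays. H2bc3 (Hist1h2bb) had levels of -0.56, -0.51, -1.37 and -0.79 on PRH-labelled arrays and -1.40, -2.25, -1.39 and -1.85 on control arrays. Here PRH 3 came within 0.03 of the brightest control arrays, and the difference was 0.92 (SE 0.272, adjusted p = 0.0427). The raw signal of H2bc3 overlapped as well, with 270 to 536 on PRH-labelled and 269 to 413 on control arrays. H2bc22 (Hist1h2bp) had levels of -4.08, -4.14, -4.34 and -3.52 on PRH-labelled arrays and -4.47, -5.24, -4.79 and -5.35 on control arrays, with a difference of 0.94 (SE 0.260, adjusted p = 0.0334), which came to 0.0245 in the authors' table. Its probe was dim, with a raw signal of 34.3 to 65.8 on PRH-labelled and 24.7 to 45.25 on control arrays. H2bc1 and H4c9 kept their calls in 4 of 5 scalings, H2bc3 in 3 of 5 and H2bc22 in 1 of 5. All 3 H2B genes lost them without PRH 1, 2 or 5 or without control 2 or 5, and H2bc1 also without PRH 3 and the other two without control 3 (adjusted p up to 0.0757 for H2bc1, 0.0880 for H2bc22 and 0.106 for H2bc3).

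H2bc21 (Hist2h2be) went the other way. It encodes H2BE, an H2B variant known from olfactory neurons of the mouse. Its level was -1.59, -1.43, -1.50 and -0.95 on PRH-labelled arrays and -0.77, -0.26, -0.54 and 0.00 on control arrays. The PRH-labelled arrays were all below the control arrays, with a difference of -0.98 (SE 0.221, 1.97-fold, adjusted p = 0.0171). It was the 1 histone gene that passed in all 5 scalings, and it missed the threshold without PRH 1 (adjusted p = 0.0507).

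H4 genes encode the most conserved histone, and all 9 differences were above 0, between 0.37 and 1.14, with 7 of 9 above 0 under median centring and 9 of 9 in the other scalings. H4c9 (Hist1h4i) had levels of 1.68, 1.82, 1.94 and 1.58 on PRH-labelled arrays and 1.19, 0.71, 1.35 and 1.11 on control arrays, a difference of 0.66 (SE 0.174, adjusted p = 0.0285). A second H4c9 probe gave 1.79, 1.67, 1.89 and 1.69 on PRH-labelled arrays against 0.73, 0.96, 1.00 and 0.85 on control arrays, a difference of 0.88 (SE 0.123, adjusted p = 0.00672 with every probe as its own item). Both probes separated the groups on this scale. Before scaling, the raw signal of both overlapped. That of the first was 2169 to 2681 on PRH-labelled and 2103 to 2764 on control arrays. That of the second was 2345 to 2577 on PRH-labelled and 1659 to 2487 on control arrays. H4c17 (Hist1h4m) had levels of 0.36, 0.37, 0.43 and 0.18 on PRH-labelled arrays and 0.05, -0.54, -0.06 and -0.38 on control arrays, a difference of 0.57 (SE 0.166, adjusted p = 0.0405). H4c9 lost its call without PRH 1, 2, 3 or 5 or without control 2 or 5 (adjusted p up to 0.0739), and H4c17 whenever an array other than control 1 was left out (up to 0.107). H4c17 kept its call in 3 of 5 scalings. Its raw signal overlapped, with 854 to 984 on PRH-labelled and 773 to 1037 on control arrays. H4f16 (Hist4h4), with the largest H4 difference, did not pass: it had 4.48, 3.71, 3.97 and 4.02 on PRH-labelled arrays against 3.51, 1.95, 3.80 and 2.36 on control arrays (difference 1.14, SE 0.430, adjusted p = 0.0912).

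**Figure D2:**
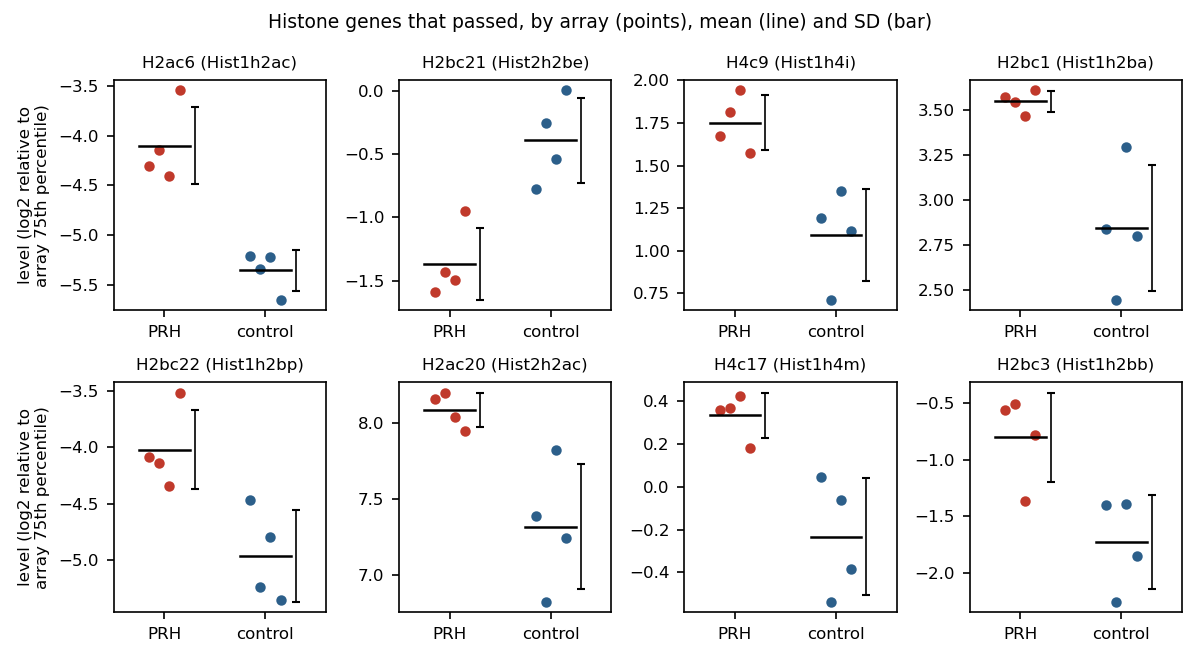
Levels (log2 scale with the 75th percentile of each array at 0, vertical axis, a scale of its own in each panel) of the 8 histone genes that passed, with each point 1 array, the line the mean and the bar the SD (n = 4 a group). For 7 genes every PRH-labelled array lies above the control arrays, and for H2bc21 every one lies under them.

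The 39 genes that did not pass had differences between -0.72 (H2bu2, SE 0.531) and 1.16 (H1f6), some as large as those that passed. H1f6 (Hist1h1t), the testis linker histone H1t, had levels of -1.18, -2.68, -1.55 and -1.07 on PRH-labelled arrays and -2.33, -2.97, -2.59 and -3.22 on control arrays, with PRH 2 inside the control range (difference 1.16, SE 0.382, adjusted p = 0.0604). H2ac18 (Hist2h2aa1) did not overlap, with 2.99, 3.23, 3.54 and 3.60 on PRH-labelled arrays against 2.21, 2.76, 1.41 and 2.88 on control arrays (difference 1.02, SE 0.338, adjusted p = 0.0606). H2bc8 (Hist1h2bg) had -2.39, -2.14, -1.88 and -1.33 on PRH-labelled arrays against -3.06, -2.64, -3.63 and -2.39 on control arrays (difference 0.99, SE 0.329, adjusted p = 0.0610). H1f6, H2bc8 and H4f16 passed once the mouse number was a block in the fit (adjusted p = 0.0435, 0.0330 and 0.0425), which gave 8 higher and 1 lower. H2bc3 and H2bc22 did not pass in that fit (adjusted p = 0.0668 and 0.0569).

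The H1 and H3 genes, none of which passed with limma as reported above, are given by their brightest members and those of largest difference. H1f5 (Hist1h1b) had 2.60, 2.40, 2.57 and 2.50 on PRH-labelled arrays and 2.45, 1.43, 3.16 and 1.77 on control arrays, so that all PRH-labelled values lay inside the control range. H1f4 (Hist1h1e) had a difference of 0.44 (SE 0.444) and H1f2 (Hist1h1c) one of -0.03 (SE 0.328). H3c4 (Hist1h3d) had levels of 6.46, 6.29, 6.37 and 6.14 on PRH-labelled arrays and 6.23, 6.22, 6.25 and 6.35 on control arrays, and its difference of 0.05 (95% interval -0.24 to 0.34) became -0.44 under median centring. H3c14 (Hist2h3c1) had a difference of 0.67 (SE 0.352, adjusted p = 0.200) and H3c7 (Hist1h3f) one of 0.61 (SE 0.326). Of the 48 genes on the array, H1f3 (Hist1h1d) was not tested, being well above background on 1 PRH-labelled and 0 control arrays. The 4 genes with a second probe (H2ac15, H4c9, H4c12 and H4c14) gave the same sign with both.

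Histone levels also differed within the control group. Control 3 was the highest control array for 33 of 47 genes and control 2 the lowest for 31. Both held at once for 29 genes (61.7%), against 9.50% of all items. The same was seen in 54.2% of the core replication genes and 42.9% of the replication-independent histone genes taken up below. The full order control 3, control 1, control 5, control 2 was seen in 26 of the 47 histone genes (55.3%), against 5.75% of all items and 41.7% of the core replication genes. The histone counts describe genes that share 8 arrays and, within a class, much of their sequence.

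The gap between control 3 and control 2 had a median of 0.90 over the histone genes and 1.82 over the H4 genes. It was 0.04 over all items and 0.87 over the core replication genes. H2ac4 (Hist1h2ab) shows it, with 4.09, 3.74, 3.77 and 3.74 on PRH-labelled arrays and 3.17, 1.76, 4.35 and 2.62 on control arrays. H4c12 (Hist1h4k) had 5.88, 5.20, 5.30 and 5.44 on PRH-labelled arrays and 4.90, 3.63, 5.88 and 4.06 on control arrays. In both genes control 3 reached or passed the PRH-labelled arrays while control 2 lay far below all of them. Neither passed (adjusted p = 0.240 and 0.225). Without control 3 the median difference over the histone genes was 0.75, and without control 2 it was 0.32.

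The PRH-labelled arrays were closer together. The median SD over the 47 genes was 0.259 among PRH-labelled arrays and 0.517 among control arrays, against 0.256 and 0.390 over all items. The control SD was the larger one for 40 of 47 genes (85.1%), against 61.9% of all items and 69.9% of named genes. It was also the larger one for 91.7% of core replication genes, and for 75% to 100% of the genes in each other list used below. The tighter PRH-labelled values are therefore not particular to the histone genes. The bright H2A genes H2ac10, H2ac11, H2ac12, H2ac15, H2ac19, H2ac20 and H2ac22 had levels between 7.67 and 8.38 over the PRH-labelled arrays and between 6.55 and 8.51 over the control arrays, and of these H2ac20 alone passed. Whether they are separate readings is uncertain, as said of the class.

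In 8 members control 2 lay above control 3 instead: H1f2, H2ac18, H2aw (Hist3h2a), H2bc21, H2bc23 (Hist1h2bq), H2bc4 (Hist1h2bc), H2bc8 and H3c15 (Hist2h3c2). H2bc4 had 1.87, 2.37, 2.40 and 2.91 on PRH-labelled arrays and 1.82, 2.91, 2.70 and 2.70 on control arrays. H1f2 had 2.06, 2.05, 2.28 and 2.50 on PRH-labelled arrays and 1.32, 2.69, 2.22 and 2.78 on control arrays. In both genes control 1 was the lowest control array, and the groups overlapped. These 8 include the 1 lower gene, H2bc21.

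**Figure D3:**
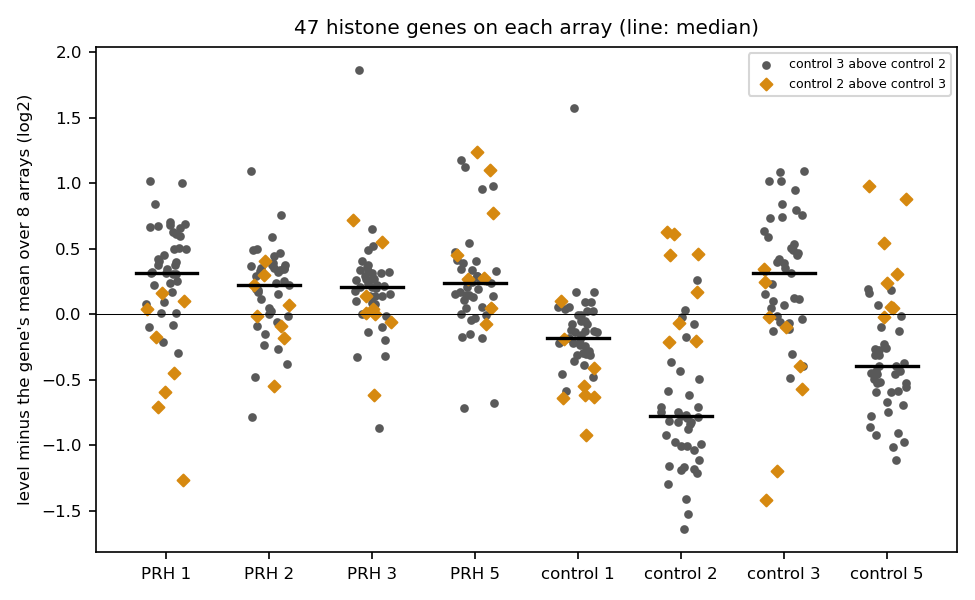
Each point is 1 of the 47 tested histone genes on 1 array, as its level minus its own mean over the 8 arrays (log2, vertical axis), with the line at the array's median; diamonds are the 8 genes with control 2 above control 3. The medians are 0.32, 0.22, 0.21 and 0.23 on the PRH-labelled arrays and -0.18, -0.78, 0.32 and -0.39 on control arrays 1, 2, 3 and 5.

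Many H2A genes lie back to back with an H2B gene, so that 1 stretch of DNA serves both starts. Of the annotated genes, 14 neighbouring pairs of an H2A and an H2B gene lay within 1000 bases, and both partners were tested in 5. The pairs were chosen by distance and not by strand. The strand of H2bc21 and of H2bc4 was not known from the sources used here. For each pair the H2A minus H2B value was taken within each array, which cancels the scaling by a single factor, and the group means were compared by an exact permutation test, two-sided, in which 0.0286 is the lowest p that the 70 possible arrangements can give. That test leaves the mouse numbers aside. With labels exchanged only within the 4 mouse numbers there are 16 arrangements and the lowest p is 0.125, so that no pair could pass: 4 pairs were at 0.125, each with the same sign in 4 of 4 mouse numbers, and H2ac22 and H2bc22 were at 0.625. Both comparisons were added after the data had been seen. The value itself mixes 2 probes of different efficiency, so it shows unequal differences, not relative amounts. Nor does it cancel a shift that changes with brightness, as described further below, where the partners differ in brightness.

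The pair H2ac20 and H2bc21 of the Hist2 cluster had the largest difference of the 5. Whether the H2ac20 probe reads its own gene alone is uncertain, as said above of the bright H2A genes. Its value was 9.74, 9.63, 9.53 and 8.90 on PRH-labelled arrays and 8.16, 7.08, 8.36 and 7.24 on control arrays. The groups were apart by 1.74 (exact p = 0.0286, 0.0357 adjusted over the 5 pairs) without overlap, and this held in the 3 other scalings run and without any single array. As reported, H2ac20 lay wholly above and H2bc21 wholly below the control arrays, so this value had to separate the groups. Its exact p therefore adds nothing to the 2 calls given above. H2ac6 rose while its neighbour H2bc4 did not pass, and their value differed by 1.40 (exact p = 0.0286), but by 0.72 after quantile normalization (exact p = 0.0571), by 0.17 after normexp (exact p = 0.457) and by 0.25 in the authors' table (exact p = 0.200). With any 1 PRH-labelled array left out the exact p was 0.0571, the difference being lowest without PRH 1 (1.29).

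In 2 pairs the difference ran the other way. H2ac8 (Hist1h2ae) had -3.71, -4.01, -3.76 and -3.34 on PRH-labelled arrays and -4.02, -3.65, -3.09 and -3.45 on control arrays, and its value against H2bc8 differed by -1.15 (exact p = 0.0286), or -0.71 with normexp and -0.76 without control 3 (exact p = 0.0571 each). The pair of testis forms, H2ac1 (Hist1h2aa) and H2bc1, differed by -0.95 (exact p = 0.0286), and by -0.91, -0.91 and -0.97 without PRH 2, PRH 3 and PRH 5 (exact p = 0.0571 each). Both kept their sign in all scalings tried, and the value of H2ac1 and H2bc1 was -1.51 under quantile normalization. The remaining pair, H2ac22 and H2bc22, whose shared start region is printed above, differed by -0.23 (exact p = 0.514), which turned to 0.09, 0.30 and 0.33 under quantile normalization, normexp and the authors' table.

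**Figure D4:**
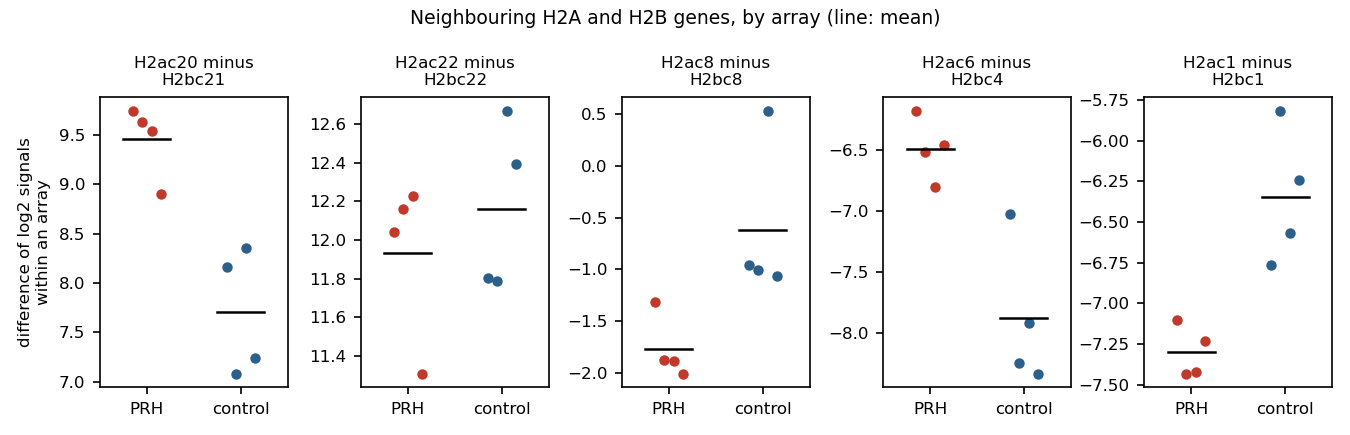
H2A minus H2B log2 signal within each array (vertical axis, a scale of its own in each panel) for the 5 neighbouring pairs; each point is 1 array and the line is the mean (n = 4 a group). The groups are apart for 4 pairs, 2 with PRH-labelled above and 2 with it below, and overlap for H2ac22 and H2bc22.

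Genes that share the S phase programme with histones were set beside them. Of 24 tested core replication genes 1 was higher and 3 were lower, which is 16.7% called, against 25.9% of all items. The median difference was -0.32, against 0.56 for the histone genes. Dut, which clears dUTP, fell by 1.37 (SE 0.248, adjusted p = 0.00919). The helicase subunit genes Mcm3 (-1.30, adjusted p = 0.0178) and Mcm5 (-0.77, adjusted p = 0.0335) were lower, and Tyms, thymidylate synthase, was higher by 0.84 (SE 0.164, adjusted p = 0.0108). Mcm3 did not pass without PRH 1 (adjusted p = 0.0510), and Tyms did not pass under median centring. Mcm5 did not pass without PRH 1, 3 or 5 or control 2, 3 or 5 (up to 0.0886), with normexp, in the authors' table or with the mouse number as a block (0.0522). Control 3 was the highest control array for 23 of these 24 genes and control 2 the lowest for 14. The summed level of the list, in log2, was 7.66 to 7.95 on PRH-labelled arrays and 7.71 to 8.55 on control arrays, with the top value on control 3. Its part in the histone differences was not tested.

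Among 20 tested factors that make and degrade histone mRNA, 8 were lower and 0 were higher with limma, and 13 had an unadjusted p under 0.05. That is 40.0% called, against 25.9% of all items, and the median difference was -0.49. Slbp, the stem-loop binding protein, had 1.47, 1.38, 1.09 and 1.11 on PRH-labelled arrays and 1.71, 1.94, 2.23 and 1.80 on control arrays. All PRH-labelled arrays lay below the control arrays (difference -0.66, SE 0.167, adjusted p = 0.0254), its other probe stood at -1.02, and it passed in all 5 scalings but not without PRH 2, 3 or 5 or control 2 or 5 (adjusted p up to 0.0720). Eri1, an exonuclease that trims the stem-loop, was lower (difference -1.08, SE 0.234, adjusted p = 0.0151). Srrt (-0.70), Ncbp1 (-0.48) and Ncbp2 (-0.68), which act at the mRNA cap, Lsm1 (-0.81), of the ring that starts histone mRNA decay, and Pou2f1 (-0.78), the octamer-binding Oct-1, were lower too. Other probes disagreed for Pou2f1 (0.69) and for Gon4l (-0.52, another probe at 0.80). Npat was not among the named genes of the array.

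Among 24 genes of chaperones and importers, which carry histones to DNA, 1 was higher and 6 were lower, or 29.2%, near the 25.9% of all items, with a median difference of -0.33. Atrx (-1.40, SE 0.176, adjusted p = 0.00685) was lower and Daxx (0.67, SE 0.123, adjusted p = 0.00944), its partner in placing H3.3, was higher except under median centring. Ipo9, an importer of H2A and H2B, fell by 1.03. Nasp, an H3 and H4 chaperone, fell by 0.78, and Hat1, which acetylates new H4, fell by 0.80. Hjurp, the chaperone of Cenpa, fell by 0.93, with other probes at 0.21 and 0.10, and Rbbp7, an H4-binding subunit of several complexes, fell by 0.72.

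Of 14 tested histone genes taken as replication-independent, 2 were higher and 2 were lower, or 28.6%, near the 25.9% of all items, with a median of 0.03. Macroh2a2, a macroH2A gene, was higher by 1.04 (SE 0.173, adjusted p = 0.00768) and H1f7, a testis linker histone, by 1.12 (SE 0.206, adjusted p = 0.00945). H1f0, the linker histone of resting cells, fell by 1.32 (SE 0.274, adjusted p = 0.0129) and Cenpa, the centromeric H3, fell by 0.72 (SE 0.188, adjusted p = 0.0283). Cenpa did not pass with any 1 PRH-labelled array or control 5 left out (adjusted p up to 0.0748), and Macroh2a2 under median centring.

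Markers of other cells were set beside the histone genes, and in each list the share called, between 7.69% and 25%, was under the 25.9% of all items. Of 8 keratinocyte genes 2 were higher (Krt14 by 1.93 and Dsg3 by 1.68), with a summed level of 5.32 to 7.001 on PRH-labelled and 4.10 to 5.67 on control arrays. Of 10 epithelial genes 1 was higher (Krt18 by 0.52), with a summed level of 8.72 to 9.01 on PRH-labelled and 8.30 to 8.67 on control arrays. Of 10 endothelial genes 1 was higher (Kdr by 1.17, another probe at -0.48), with a summed level of 5.15 to 5.38 on PRH-labelled and 4.21 to 5.31 on control arrays. Of 9 fibroblast genes 2 were lower (Pdgfra, -0.73, and Pdgfrb, -0.66), of 13 leukocyte genes 1 was lower (Lyz2, -0.86) and of 7 muscle genes 1 was higher (Mylpf by 1.31). The summed levels of these 3 lists were 8.41 to 8.71, 7.33 to 7.76 and 1.81 to 2.88 on PRH-labelled arrays and 8.36 to 8.88, 7.18 to 8.09 and 1.05 to 4.00 on control arrays. Control 3, the control array where 33 of 47 histone genes were highest, had the lowest summed level among control arrays for the endothelial (4.21), epithelial (8.30), leukocyte (7.18), keratinocyte (4.10) and muscle (1.05) lists and the highest for the fibroblast list (8.88). The markers not well above background on some array included Ncr1, Dsg3, Ivl, Krt1, Myh4 and Myl1. With 1 array left out, Krt14 did not pass without PRH 1 (adjusted p = 0.0515), and Krt18, Kdr, Pdgfrb and Dsg3 each did not pass in 5 or more of the 8 fits (up to 0.112). Krt18 and Dsg3 did not pass in any of the other 4 scalings, and Kdr did not under median centring. The part of these cells in the histone differences was not tested.

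Differences also moved with brightness over the whole array. All items were split by brightness into 10 bins of equal size. The median difference was 0.91 in the dimmest bin, which held 0 histone genes. It was 0.75, 0.69, 0.63, 0.50 and 0.31 in bins 2 to 6, which held 3, 3, 3, 5 and 4 histone genes. In bin 8 it was -0.14, and in the brightest, which held 14 of the 47 histone genes, it was 0.07. The higher genes H2ac6 (difference 1.25) and H2bc22 (0.94) were in bin 2. Of the 47 genes, 33 lay above the median of their own bin, against 17270 of the 34543 items. Scaling shifted all items together: their median difference was 0.29 as reported, -0.20 with median centring and 0.05 to 0.06 with quantile normalization, normexp and the authors' table, where 66.5%, 25.8% and 44.0% to 47.2% of calls were higher. Relative to the median of all items, the histone median stood 0.27 higher as reported and with median centring, and 0.21 to 0.31 higher in the other 3. It stood 0.06 higher without control 2 and 0.51 higher without control 3.

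**Figure D5:**
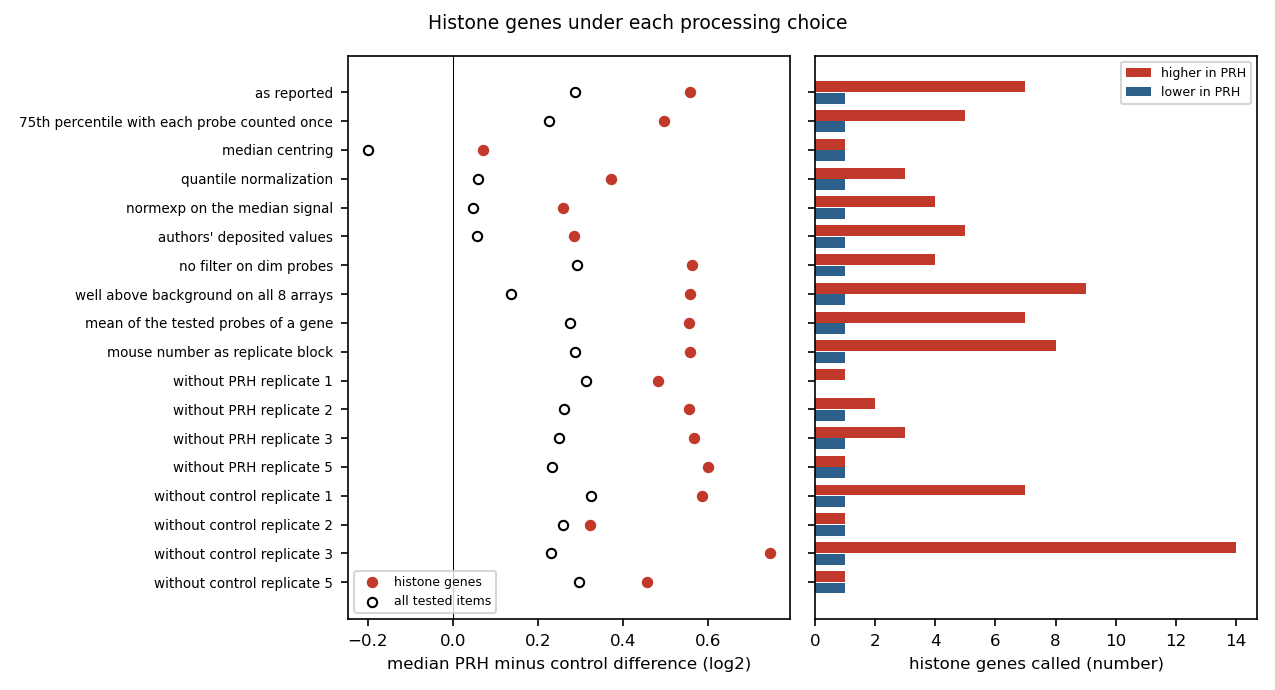
Left, the median PRH-labelled minus control difference (log2) of the histone genes (filled) and of all tested items (open) under each processing choice; right, the number of histone genes higher and lower. The histone median lies above that of all items in every choice drawn, while the count of higher genes runs between 1 and 14.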

How the data were processed

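Array intensities were deposited by the authors as Agilent Feature Extraction output: the processed signal is the background-subtracted spot intensity, made with version 10.7.3.1 per the file headers and 9.1 per the submitters' processing notes, on a mouse design placed on mm9. The authors also deposited normalized linear intensities, whose background correction is not given in the sources used here. The labels call the array human, but its accessions are of the mouse.

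Here log2 processed signal was taken relative to each array's 75th percentile. Control spots were left out. Spots flagged as non-uniform or as outliers were dropped where the probe had an unflagged spot, and the rest were averaged. A gene was given by its brightest probe. Probes well above background on at least 4 of 8 arrays were tested with limma 3.58.1 in R 4.3.3 (lmFit, eBayes, two-sided, Benjamini-Hochberg, threshold 0.05), after a check on simulated data. Of 55681 probes, 72.2% to 73.9% stood well above background on PRH-labelled and 64.2% to 69.8% on control arrays. The 75th percentile used for scaling was a signal of 679 to 762 on PRH-labelled and 1003 to 1283 on control arrays. Both measures split the groups without overlap. None of the spots kept was saturated, and precision is limited by having 4 arrays a group. The spread behind each p-value is that between these tumours.

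Probes were named through RefSeq accessions and a gene table of GRCm38.p6 (25869 of 26392 curated mRNA accessions matched). Named are all histone genes that passed, the 2 brightest and the 2 of largest difference in each class, up to 4 members of smallest p in each list, Slbp and Hhex. The remaining genes named were chosen after their values were seen, as were the pairs of neighbours. The members and the lists were chosen with earlier results of these data known. The alternatives were median centring, quantile normalization, normexp (offset 50, on the median spot signal, since the mean signal planned was not used here), the authors' values, 2 other filters, the probes of a gene averaged, the mouse number as a replicate block, each array left out, and, added after seeing the data, a 75th percentile with each probe counted once. Deviations from the group mean correlated between same-numbered arrays at 0.203, 0.436, 0.666 and 0.274 for mice 1, 2, 3 and 5, all above 0.1. The numbers, which the labels give to both groups, were therefore taken to pair the arrays in the block fit. The fit as reported leaves them aside. Same-numbered arrays also share the second slide coordinate, so a pairing by mouse cannot be told apart from one by place.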

Additional observations from a re-analysis of the deposited data

Results flagged for a closer look

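Among 98 groups of 4 arrays checked, over the histone genes and list members named, 1 held an array far from its neighbours. Pdgfrb, a fibroblast and pericyte receptor gene, read 0.784 on PRH 1, against 1.18, 1.21 and 1.26 on the other PRH-labelled arrays. Chance flags about 1 in 20 such groups. No histone gene was flagged in this way.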

How the results depend on the processing

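The count of 7 higher histone genes became 1 with median centring, 3 with quantile normalization, 4 with normexp and 4 with no filter on dim probes, was 5 in the authors' table and with each probe counted once in the percentile, 7 with a gene's probes averaged and 9 with probes well above background on all 8 arrays, and ran between 1 and 14 with 1 array left out. The count of 1 lower gene ran between 0 and 1. With the mouse number as a replicate block, 8 were higher and 1 was lower. Differences that changed sign were, with median centring, H1f5 (-0.17), H1f4 (-0.0456), H2ac12 (-0.0065), H2bc14 (-0.17) and H3c4 (-0.44), with quantile normalization H1f2 (0.0715) and H3c4 (-0.0444), with each probe counted once H3c4 (-0.0114), with the mean of probes Gon4l (0.36), and for H1f2 with 1 array left out (-0.34 to 0.15). None of these histone genes was called as reported, though H2bc14 was called with normexp and in the authors' table, and H2ac12 without control 3. The H2A minus H2B values of H2ac22 and H2bc22 turned to 0.0880, 0.299 and 0.327 with quantile normalization, normexp and the authors' table. Those of H2ac6 and H2bc4 came to 0.723, 0.173 and 0.255 in the same order, none past the threshold, and to 1.24 to 1.68 with 1 array left out. H2ac8 and H2bc8 gave -0.707 with normexp and -1.30 to -0.763 with 1 array left out, and H2ac1 and H2bc1 -1.09 to -0.775, with -1.51 under quantile normalization. With the mouse number as a replicate block these values stay as they are by construction (1.74 for H2ac20 and H2bc21, 1.40 for H2ac6 and H2bc4, -1.15 for H2ac8 and H2bc8, -0.952 for H2ac1 and H2bc1), but the lowest exact p of that design is 0.125, so none could pass. The other causes were not tested. The probes of H1f3, H2ac6 and H2bu2 were not well above background on every array.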
